A study of Mus musculus with 11 samples.

Results

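The aryl hydrocarbon receptor (AhR) pathway and the enzymes that handle phenols were described here through 8 genes, matched by symbol to the mouse annotation: *Ahr*, *Arnt*, *Ahrr*, *Tiparp*, *Cyp1a1*, *Cyp1b1*, *Sult1a1* and *Ephx1*. These genes and the further lists below were chosen with earlier results of these data known. The shares over all genes given beside their counts do not account for that choice. All 8 were found among the 53801 genes of every library. RNA sequencing was done on 11 libraries of primary neural stem cells (NSCs) derived from mouse hippocampus. Cells were kept for 7 days in proliferation medium, with EGF and bFGF at 20 ng/ml each and 1% B27, or in differentiation medium, without those growth factors and with 2% B27. In each medium they received 1 µM 4HBP or the vehicle EtOH. There were 3 libraries per group, except for 2 vehicle libraries in differentiation medium. The labels spell the compound out as 4-hydroxybenzoic acid whereas the study's text names it 4-hydroxybenzophenone, a hydroxylated benzophenone, and the abbreviation is used here. The study's methods describe C57BL/6 mice and NSCs taken from the hippocampus of embryos, and the sex of the embryos was not given in the sources used here. The labels do not say whether the libraries of a group came from separate cultures, so the p-values below measure the spread between these libraries, which may be technical.

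AhR is a ligand-activated transcription factor that is held in the cytosol by chaperones. When a planar aromatic compound binds it, AhR moves to the nucleus, pairs with ARNT and binds xenobiotic response elements, whose core is GCGTG, near genes such as *Cyp1a1*, *Cyp1b1*, *Ahrr* and *Tiparp*. AHRR competes with AhR for ARNT and TIPARP ADP-ribosylates AhR, so both act as feedback inhibitors. Phenols are cleared mainly by conjugation, sulfation by sulfotransferases such as SULT1A1 and glucuronidation by UGT enzymes, while microsomal epoxide hydrolase, the product of *Ephx1*, opens the epoxides that oxidation by cytochrome P450 enzymes can form.

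On GRCm38 (GENCODE annotation) only *Arnt* and *Tiparp* among the members share a chromosome. *Ahr* is at chr12:35497974-35535038 and *Ahrr* at chr13:74211118-74292331, both on the minus strand, and *Arnt* at chr3:95434388-95497240 and *Tiparp* at chr3:65528410-65555518, both on the plus strand. *Cyp1a1* is at chr9:57687928-57703824 on the plus strand and *Cyp1b1* at chr17:79701537-79715061 on the minus strand. *Sult1a1* is at chr7:126672865-126676432 and *Ephx1* at chr1:180976210-181020904, both on the minus strand. All 8 are protein-coding. Exons of *Sult1a1*, *Tiparp* and *Ahr* overlap those of *Sgf29*, *4931440P22Rik* and *Gm48236* on the opposite strand, and exons of *Ephx1* overlap *Gm36961* on the same strand, so some reads of *Ephx1* may be shared with that gene.

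The promoters of 7 members were found in RefSeq (GRCm38.p6), each as the 250 bases before and the 50 bases after the annotated start, and *Ahr* had no entry. The core GCGTG, searched on both strands, was present in 5 of the 7 windows, against 32.4% of all 32851 promoter windows of the same length. *Ahrr* held 3 copies, and *Arnt*, *Tiparp*, *Cyp1a1* and *Cyp1b1* held 1 copy each. The letters TGACNNNGC, the core of the antioxidant response element that NRF2 binds, were present in *Arnt* only, against 12.4% of all windows. No overlap between these motifs was found in the *Arnt* window. The windows below are those of *Ahrr*, which held the most copies, of *Cyp1a1*, the classic AhR target, and of *Cyp1b1*, *Sult1a1* and *Ephx1*, the members called between the media both under vehicle and under 4HBP. They run 5′ to 3′ on the strand of the gene, with the GCGTG core or its reverse complement CACGC in capitals.
Ahrr: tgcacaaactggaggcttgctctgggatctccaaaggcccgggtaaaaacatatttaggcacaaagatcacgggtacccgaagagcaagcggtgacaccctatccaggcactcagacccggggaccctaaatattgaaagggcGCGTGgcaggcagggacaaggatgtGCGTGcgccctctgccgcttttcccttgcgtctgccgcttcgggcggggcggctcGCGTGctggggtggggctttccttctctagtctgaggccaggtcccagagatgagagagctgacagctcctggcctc
Cyp1a1: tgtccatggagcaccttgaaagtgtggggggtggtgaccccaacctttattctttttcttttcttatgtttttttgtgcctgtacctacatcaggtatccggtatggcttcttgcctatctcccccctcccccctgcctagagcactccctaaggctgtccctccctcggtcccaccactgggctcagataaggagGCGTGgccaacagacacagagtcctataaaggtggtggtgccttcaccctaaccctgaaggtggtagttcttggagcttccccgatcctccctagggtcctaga
Cyp1b1: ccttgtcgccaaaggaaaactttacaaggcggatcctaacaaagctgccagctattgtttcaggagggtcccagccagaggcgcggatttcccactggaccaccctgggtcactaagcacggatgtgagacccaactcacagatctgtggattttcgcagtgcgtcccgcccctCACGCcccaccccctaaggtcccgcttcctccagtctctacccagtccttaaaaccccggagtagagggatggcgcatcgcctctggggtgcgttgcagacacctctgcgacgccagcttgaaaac
Sult1a1: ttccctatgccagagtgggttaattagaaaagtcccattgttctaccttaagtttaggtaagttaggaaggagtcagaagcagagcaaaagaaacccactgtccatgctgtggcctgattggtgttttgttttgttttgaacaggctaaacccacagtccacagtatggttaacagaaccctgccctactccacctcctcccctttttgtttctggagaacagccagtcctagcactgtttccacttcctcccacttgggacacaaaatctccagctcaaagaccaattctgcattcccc
Ephx1: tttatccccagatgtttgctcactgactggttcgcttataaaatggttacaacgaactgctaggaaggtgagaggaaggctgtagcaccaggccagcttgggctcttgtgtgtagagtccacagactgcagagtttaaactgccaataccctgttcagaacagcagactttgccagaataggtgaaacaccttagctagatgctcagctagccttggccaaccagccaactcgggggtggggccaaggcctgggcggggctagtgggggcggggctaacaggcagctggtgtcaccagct
These windows lie at chr13:74292282-74292581 on the minus strand (*Ahrr*), chr9:57697363-57697662 on the plus strand (*Cyp1a1*), chr17:79715012-79715311 on the minus strand (*Cyp1b1*), chr7:126676369-126676668 on the minus strand (*Sult1a1*) and chr1:181017520-181017819 on the minus strand (*Ephx1*). The 3 copies of *Ahrr* begin 107, 82 and 27 bases before the start, all on the strand of the gene. The copy of *Cyp1a1* begins 54 bases before the start on the strand of the gene, and that of *Cyp1b1* begins 76 bases before it on the opposite strand. The windows of *Sult1a1* and *Ephx1* do not contain these letters, which says nothing about sites elsewhere. RefSeq and GENCODE place the first base of *Ephx1* 3335 bases apart and that of *Cyp1a1* 9685 bases apart, so these windows describe 1 of several possible starts.

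The libraries held between 20822921 and 23438463 expected counts. After TMM scaling of these totals, 3 counts, used below as the floor, corresponded to between 0.125 and 0.149 CPM (counts per 1000000 counts). CPM values below are scaled by TMM across the 11 libraries, and levels compared between genes are the deposited TPM, which account for transcript length. The summed level of 8 NSC markers was 7306 to 8378 CPM in vehicle cultures in proliferation medium and 4205 to 4254 CPM in those in differentiation medium. In proliferation medium the third 4HBP library stood apart, with a chi-square per gene of 23.8 and 21.5 against replicates 1 and 2, compared with 5.34 between those replicates. The differentiation libraries were closer to each other, and the biological coefficient of variation was 0.0368 there and 0.117 in proliferation medium.

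*Ephx1* had by far the highest level of the members, with 124 ± 16.3 TPM (SD, n = 3) in vehicle cultures in proliferation medium and 454 ± 1.98 TPM (SD, n = 2) in vehicle cultures in differentiation medium. In the latter, 1.01% of the 23101 genes above 0 TPM lay above it. *Tiparp* followed *Ephx1* in proliferation medium, with 16.9 ± 1.25 TPM (SD, n = 3) under vehicle, and *Arnt* came next with 15.1 ± 0.426 TPM (SD, n = 3). *Sult1a1* moved up in the order with the medium. Under vehicle it averaged 25.8 ± 4.72 TPM (SD, n = 2) in differentiation medium, a range that overlapped that of *Tiparp*, but 0.383 ± 0.189 TPM (SD, n = 3) in proliferation medium, where it was followed by *Cyp1b1*, *Ahr* and *Ahrr* with neighbours in that order overlapping. The receptor gene itself was scarce. *Ahr* ranged from 0.11 to 0.87 TPM over the 11 libraries, or 8 to 53 counts, and *Ahrr* from 1 to 11 counts. *Cyp1a1* had 4 counts in total, 2 in 1 4HBP library and 1 in each of 2 vehicle libraries in proliferation medium, and 0 in all 5 differentiation libraries. No library exceeded the floor of 3 counts for *Cyp1a1*, so no rise of this target above the floor was seen under 4HBP in either medium. A change below the floor was not detectable at this depth.

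**Figure D1:**
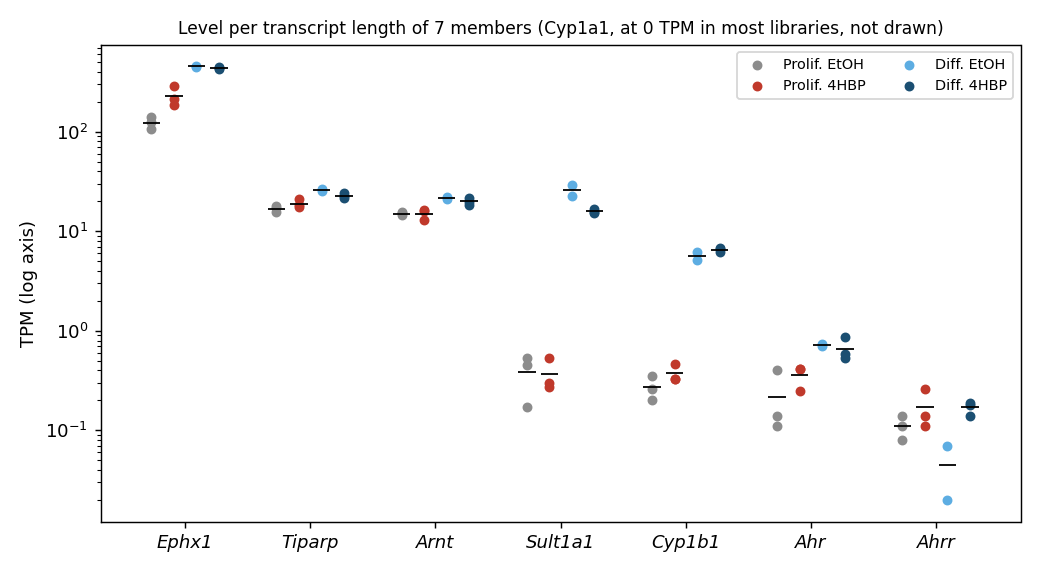
TPM, on a log axis, of 7 members in each of the 11 libraries, with points for libraries and short black lines for group means. *Ephx1* lies above every other member in all groups, and *Sult1a1* and *Cyp1b1* are below 1 TPM in proliferation medium and above 5 TPM in differentiation medium.

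To see which genes 4HBP changed in proliferating NSCs, treated and vehicle cultures in proliferation medium were compared. *Ephx1* was upregulated and no other tested member passed the threshold. It measured 222, 254 and 322 CPM under 4HBP and 144, 128 and 170 CPM under vehicle. All 3 treated libraries lay above all 3 vehicle libraries, and 31.3% of all genes tested likewise did not overlap, in either direction. The fold change was 1.81 (log2 0.85 ± 0.14 SE, edgeR adjusted p = 0.0132). *Ephx1* was 1 of 5 members tested, and 3.74% of the 14449 genes tested were higher by this rule, while 3.69% were lower. *Ahrr*, *Cyp1a1* and *Sult1a1* had too few counts to be tested. As in any bulk sample, a change in the share of a cell type and a change in RNA per cell cannot be told apart here. Beside the rise of *Ephx1*, the summed level of 7 astrocyte markers was 3731 to 4392 CPM under 4HBP and 5415 to 6680 CPM under vehicle, with 4 of the 7 lower and none higher, and none of them at 0 in all libraries of a group. The summed level of 8 NSC markers overlapped between the groups, at 7138 to 7841 and 7306 to 8378 CPM, with 1 of the 8 lower. The summed 7 neuron markers did not overlap, at 945 to 949 CPM under 4HBP and 965 to 1061 CPM under vehicle, with none called. The sums of oligodendrocyte lineage, ependymal, endothelial, pericyte and fibroblast, and microglia markers overlapped, with none called. The part of these markers in the result was not tested. Without the third 4HBP library, which had the highest *Ephx1* value, the log2 fold change was 0.70 (adjusted p = 0.0061). The call was lost without vehicle replicate 1 (adjusted p = 0.0726) or vehicle replicate 2 (adjusted p = 0.0694), and with limma on log2(CPM + 1) (adjusted p = 0.0827).

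Among the receptor and its partner, *Ahr* gave 1.03, 1.64 and 1.55 CPM under 4HBP and 0.390, 0.444 and 1.69 CPM under vehicle. The highest value belonged to a vehicle library, and the groups overlapped (log2 fold change 0.74 ± 0.53 SE, adjusted p = 0.428). When 1 library was left out, the log2 fold change of *Ahr* ranged from 0.40 to 1.74. None of these runs passed the test (lowest edgeR adjusted p = 0.0517). *Arnt* overlapped between the groups, with 33.6, 36.7 and 38.4 CPM under 4HBP and 34.7, 39.4 and 37.2 CPM under vehicle (log2 fold change -0.03 ± 0.09 SE, adjusted p = 0.856). Its sign turned positive under 3 alternatives, all with a log2 fold change of at most 0.016.

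Of the feedback inhibitors, *Tiparp* measured 54.8, 54.9 and 55.5 CPM under 4HBP and 44.2, 54.03 and 52.9 CPM under vehicle. The treated libraries all lay above the vehicle libraries, as was the case in either direction for 31.3% of all genes tested, and the difference did not pass the test (log2 fold change 0.13 ± 0.09 SE, adjusted p = 0.414). *Ahrr* had 11, 8 and 11 counts under 4HBP and 8, 7 and 6 under vehicle. These counts overlapped at 8. For the AhR target *Cyp1b1*, which oxidises polycyclic aromatics and estrogens, the values were 1.27, 1.26 and 1.64 CPM under 4HBP and 0.732, 0.987 and 1.34 CPM under vehicle. Its groups overlapped (log2 fold change 0.45 ± 0.32 SE, adjusted p = 0.430). *Sult1a1* had 3, 5 and 9 counts under 4HBP and 9, 3 and 6 under vehicle, so both groups reached down to the floor of 3 counts. The median log2 fold change of the 5 tested members was 0.45, against 0.0014 over all genes tested.

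**Figure D2:**
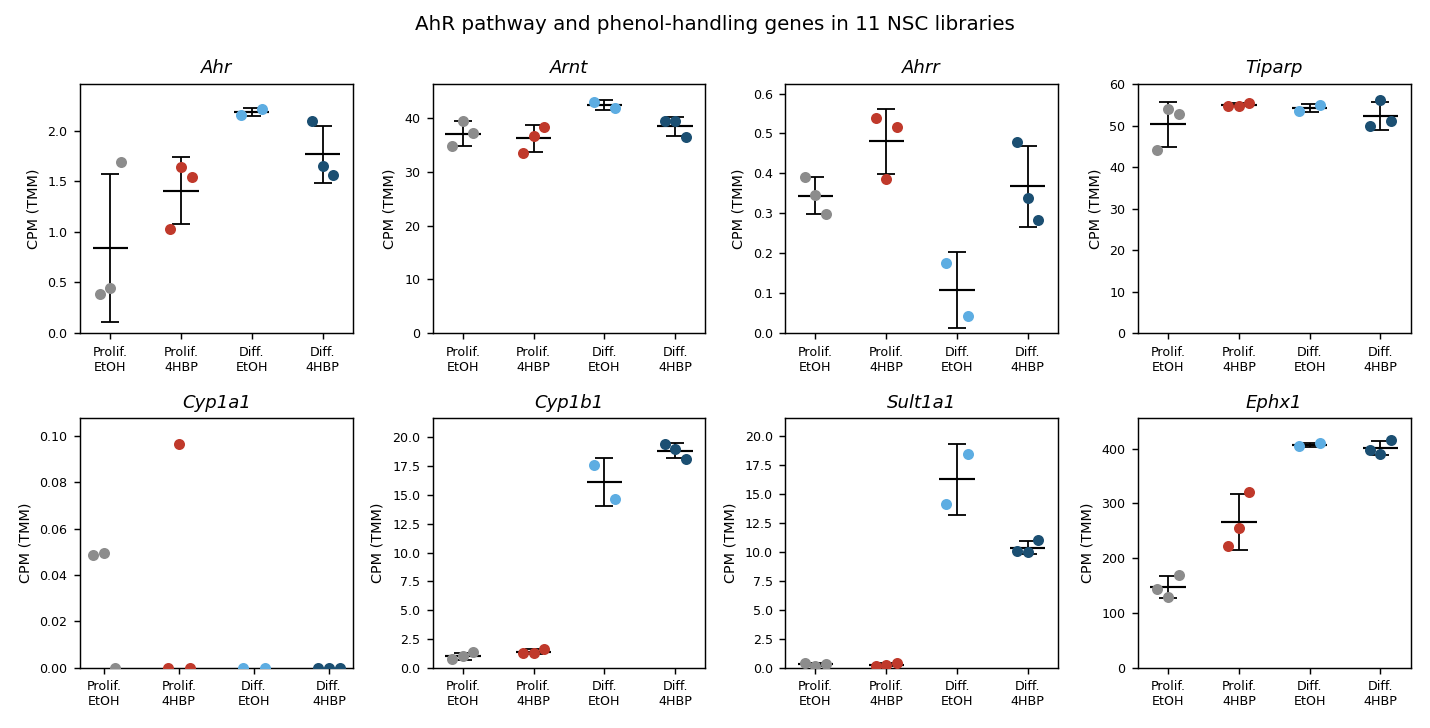
CPM after TMM scaling of the 8 members in each library, with points for libraries, horizontal lines for group means and bars for SD (*Cyp1a1* as points only, since no library exceeded 3 counts). *Ephx1* separates the 3 4HBP libraries from the 3 EtOH libraries in proliferation medium, and *Sult1a1* separates the 3 4HBP libraries from the 2 EtOH libraries in differentiation medium. Of all genes tested, 31.3% in proliferation medium and 32.9% in differentiation medium did not overlap.

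In differentiation medium the same comparison called a different member. *Sult1a1*, the phenol sulfotransferase, fell, and *Ephx1* did not pass the test. *Sult1a1* measured 10.1, 9.98 and 11 CPM under 4HBP, from 231, 236 and 233 expected counts. Under vehicle it measured 14.1 and 18.4 CPM, from 320 and 442 expected counts. Every treated library was below both vehicle libraries, and 32.9% of all genes tested likewise did not overlap, in either direction. The level under 4HBP was 0.632 of that under vehicle (log2 fold change -0.66 ± 0.11 SE, adjusted p = 0.0047). Of the 6 members tested *Sult1a1* was the only one called, when 1.29% of the 15484 genes tested were lower and 1.26% higher. The result rested on 2 vehicle libraries. Without vehicle replicate 2, the higher one, the log2 fold change was -0.45 and no longer passed (adjusted p = 0.101), and it also did not pass with limma on log2(CPM + 1) (adjusted p = 0.302) or when all 11 libraries shared 1 estimate of the spread (adjusted p = 1). The summed astrocyte, oligodendrocyte and neuron markers overlapped between treated and vehicle libraries in this medium, at 7715 to 7968 and 7828 to 7855 CPM for astrocytes. The summed ependymal markers overlapped too, at 109 to 112 CPM under 4HBP and 110 to 111 CPM under vehicle. So did the pericyte and fibroblast markers, at 27.5 to 30.4 and 29.2 to 31.4 CPM. The sums of the remaining lists did not overlap. The 8 NSC markers were at 4117 to 4167 CPM under 4HBP and 4205 to 4254 CPM under vehicle, with 1 of the 8 called and higher. The 7 endothelial markers were at 6.57 to 7.41 and 8.58 to 8.61 CPM, and the 7 microglia markers at 1.375 to 1.771 and 1.209 to 1.315 CPM, with none called in either list. The part of these markers in the fall of *Sult1a1* was not tested.

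*Ephx1* in differentiation medium was 397, 389 and 415 CPM under 4HBP and 405 and 409 CPM under vehicle. The vehicle values lay within the range of the treated ones (log2 fold change -0.03 ± 0.03 SE, adjusted p = 0.714). *Cyp1b1* was 19.4, 19.0 and 18.2 CPM under 4HBP and 17.6 and 14.6 CPM under vehicle, which did not overlap (log2 fold change 0.22 ± 0.09 SE, adjusted p = 0.219). *Arnt* and *Ahr* did not overlap either, both on the lower side under 4HBP. *Arnt* gave 39.5, 39.4 and 36.4 CPM against 43.0 and 41.8 CPM (log2 fold change -0.15 ± 0.06 SE, adjusted p = 0.200). For *Ahr* the values were 2.09, 1.65 and 1.56 CPM against 2.16 and 2.21 CPM (log2 fold change -0.31 ± 0.24 SE, adjusted p = 0.583). With groups of 3 and 2, 32.9% of all genes tested did not overlap, so the separation of 4 of the 6 tested members is given as a description. *Tiparp* was 49.98, 56.2 and 51.1 CPM under 4HBP and 53.6 and 55.0 CPM under vehicle, and overlapped (log2 fold change -0.06 ± 0.05 SE, adjusted p = 0.673). *Ahrr* had 11, 8 and 6 counts under 4HBP and 4 and 1 under vehicle, too few to be tested in this medium. The median log2 fold change of the 6 tested members was -0.10, against -0.0010 over all genes tested.

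**Figure D3:**
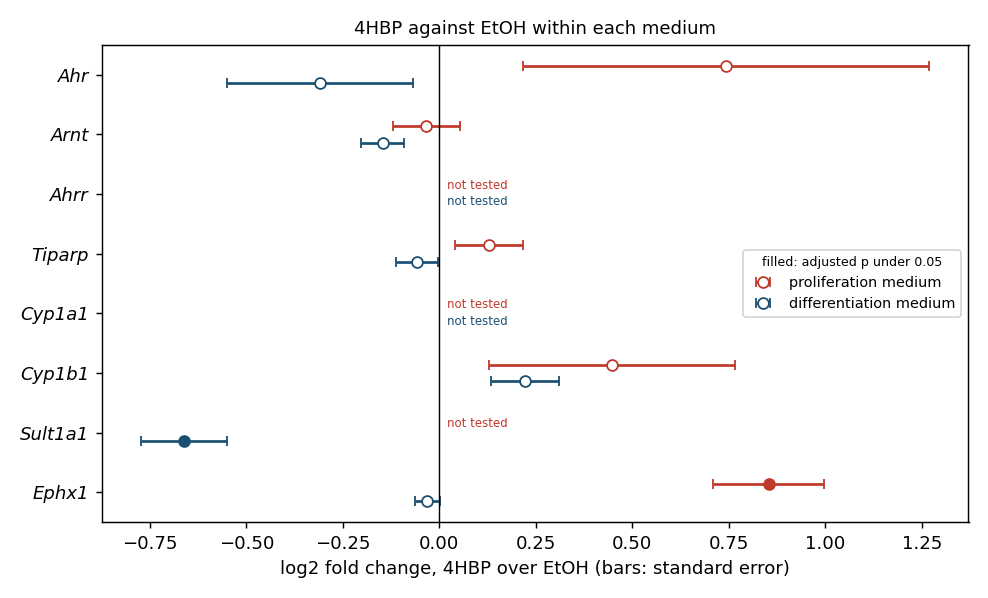
Log2 fold change of each member, 4HBP over EtOH, in proliferation medium (red) and differentiation medium (blue), with bars for the standard error and filled points for an adjusted p under 0.05. The only filled points are *Ephx1* at 0.85 in proliferation medium and *Sult1a1* at -0.66 in differentiation medium.

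Another rule, an unadjusted limma p under 0.05 with an absolute log2 fold change over 0.58 on log2(CPM + 1), picked the same pair of members. It took *Ephx1* in proliferation medium (log2 difference 0.87), where 2.73% of 23841 genes passed. It took *Sult1a1* in differentiation medium (log2 difference -0.61), where 0.257% of 25711 genes passed.

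The response of *Ephx1* to 4HBP differed between the media. The log2 fold change in proliferation medium exceeded that in differentiation medium by 0.88 ± 0.18 SE (interaction in the fit of all 11 libraries, adjusted p = 0.0168). It was 1 of 7 members tested for this, with 2.01% of 15920 genes higher and 2.48% lower. The call was lost when any 1 of 4 differentiation libraries was left out, 4HBP replicate 1 (adjusted p = 0.0509) or 2 (0.0530) or vehicle replicate 1 (0.0796) or 2 (0.0792), with the log2 difference between 0.86 and 0.88. For *Sult1a1* the difference between media was 0.54 ± 0.53 SE (adjusted p = 0.623), so its fall in differentiation medium was not shown to differ from its response in proliferation medium, where the counts were near the floor. The remaining tested members had adjusted p-values between 0.376 and 0.704. *Ahr* was called without the third vehicle library in proliferation medium, the one with 1.69 CPM (log2 difference 2.04, adjusted p = 0.0180).

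Between the media, 6 of the 7 tested members differed in vehicle cultures. *Sult1a1* rose from 0.439, 0.148 and 0.298 CPM in proliferation medium to 14.1 and 18.4 CPM in differentiation medium. That was a fitted 54.1-fold difference (log2 5.76 ± 0.27 SE, adjusted p = 2.8e-09), although 1 of the 3 proliferation libraries stood at the floor. *Cyp1b1* rose from 0.732, 0.987 and 1.34 CPM to 17.6 and 14.6 CPM, or 15.7-fold (log2 3.98 ± 0.19 SE, adjusted p = 2.3e-09). *Ephx1* rose from 144, 128 and 170 CPM to 405 and 409 CPM, or 2.76-fold (log2 1.47 ± 0.13 SE, adjusted p = 8.1e-07). None of these 3 genes had overlapping groups, and 76.3% of all genes tested did not overlap. *Ahr* also rose, from 0.390, 0.444 and 1.69 CPM to 2.16 and 2.21 CPM (log2 1.38 ± 0.46 SE, adjusted p = 0.0206). *Arnt* rose from 34.7, 39.4 and 37.2 CPM to 43.0 and 41.8 CPM (log2 0.19 ± 0.08 SE, adjusted p = 0.0445). *Ahrr* was the member that fell, from 8, 7 and 6 counts to 4 and 1 (log2 -1.63 ± 0.62 SE, adjusted p = 0.0372). *Tiparp* did not pass the test (log2 0.11 ± 0.09 SE, adjusted p = 0.292). In total, 5 of the 7 tested members rose and 1 fell, with 30.8% of 15920 genes higher and 30.6% lower. The calls of *Ahr*, *Arnt* and *Ahrr* were each lost when single libraries were left out. DESeq2 did not call *Arnt* or *Ahrr* (adjusted p = 0.0605 and 0.0936), nor did edgeR without a filter (0.157 and 0.127). Without vehicle replicate 1 in proliferation medium all 3 were lost (adjusted p = 0.0730, 0.145 and 0.0780), and likewise without vehicle replicate 2 in differentiation medium (0.0782, 0.0926 and 0.297), where the log2 fold change of *Ahrr* was -0.94. Without vehicle replicate 1 of that medium it was -2.88.

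Under 4HBP the media differed for *Sult1a1*, *Cyp1b1* and *Ephx1* again. *Sult1a1* rose from 0.147, 0.242 and 0.422 CPM to 10.1, 9.98 and 11 CPM (log2 5.22 ± 0.27 SE, adjusted p = 3.9e-09). *Cyp1b1* rose from 1.27, 1.26 and 1.64 CPM to 19.4, 19.0 and 18.2 CPM (log2 3.75 ± 0.17 SE, adjusted p = 9.5e-10). *Ephx1* rose from 222, 254 and 322 CPM to 397, 389 and 415 CPM, or 1.505-fold (log2 0.59 ± 0.12 SE, adjusted p = 0.00067). These 3 of 7 tested members were higher, against 33.3% of genes higher and 33.8% lower, and 71.6% of all genes did not overlap. *Ahr*, *Arnt*, *Ahrr* and *Tiparp* overlapped between the media (adjusted p = 0.491, 0.289, 0.452 and 0.430). These treated cultures and the vehicle cultures above have no library in common.

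Cell type markers moved with the medium too. From proliferation to differentiation medium under vehicle, the 8 NSC markers were lower in 8 of 8. Over all genes tested in this comparison 30.8% were higher and 30.6% lower. The summed 7 oligodendrocyte lineage markers went from a range of 2776 to 3382 CPM to one of 6875 to 7198 CPM, with 5 of the 7 higher and none lower. The 7 astrocyte markers went from 5415 to 6680 CPM to 7828 to 7855 CPM, with 5 higher and 2 lower. The 7 neuron markers were at 965 to 1061 CPM and then at 912 to 944 CPM, with 4 higher and 1 lower. That sum was mostly *Map2*, which was at 783 to 886 CPM and then at 660 to 673 CPM. The 5 ependymal markers were at 42.3 to 46.3 CPM and then at 110 to 111 CPM, and all 3 that could be tested were higher. Of the 7 pericyte and fibroblast markers 3 could be tested, of which 2 were higher and 1 lower. Their sum, 2.78 to 3.90 CPM and then 29.2 to 31.4 CPM, was mostly *Pdgfrb* in differentiation medium, where that gene alone was at 27.4 to 29.4 CPM. The 7 endothelial markers summed to 15.8 to 24.1 CPM and then to 8.58 to 8.61 CPM, with 1 of the 3 tested higher and 1 lower. In proliferation medium that sum was mostly *Flt1*, which was at 10.7 to 19.4 CPM there and at 1.81 to 1.96 CPM in differentiation medium. The 7 microglia markers stayed below 4 CPM, and the 1 tested was lower. The part of these cell types in the rise of *Sult1a1*, *Cyp1b1* and *Ephx1* was not tested.

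**Figure D4:**
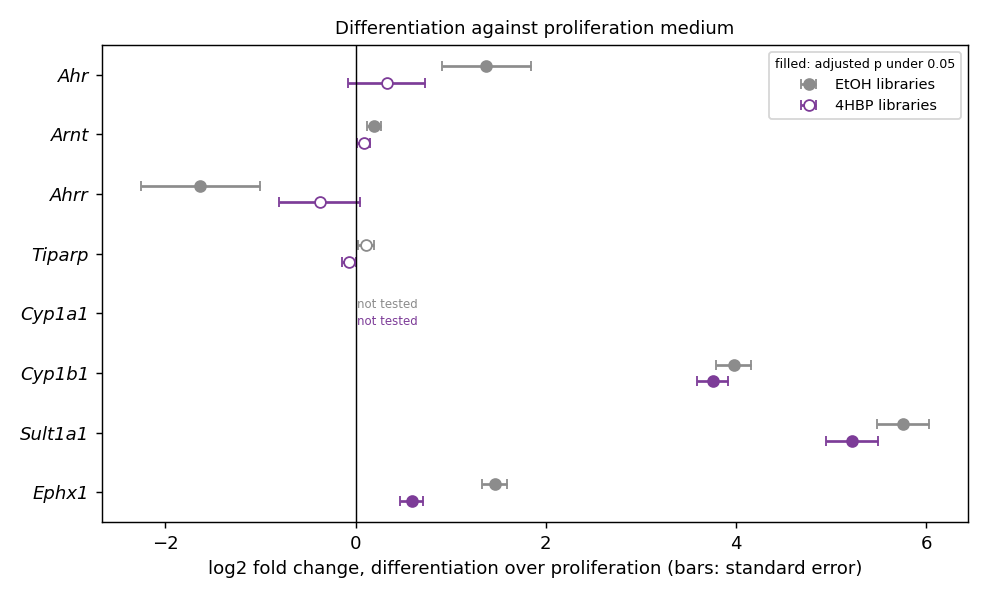
Log2 fold change of each member, differentiation over proliferation medium, in EtOH libraries (grey) and 4HBP libraries (purple), with bars for the standard error and filled points for an adjusted p under 0.05. *Sult1a1*, *Cyp1b1* and *Ephx1* are filled in both sets, and *Ahr*, *Arnt* and *Ahrr* in the EtOH libraries only, a difference in 4HBP response that did not pass the interaction test for those 3.

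Across the 11 libraries, which share the 2 media, *Cyp1b1* followed *Kcnk1* (Pearson r = 0.997 in log2 CPM) and *Cryab* (0.997) most closely among 15919 other genes. *Sult1a1* followed *Sema3d* (0.995) and *Zbtb34* (0.994), and *Ephx1* followed *Tor3a* and *Usp6nl* (both 0.991). The closest genes to *Ahr* were *Lhfp* (0.943) and *Tmf1* (0.935), to *Arnt* *Efcab8* (0.961) and *Gigyf1* (0.943), and to *Ahrr* *Vmn1r90* (0.893) and *Tmem141* (0.873). Between members, *Cyp1b1* and *Sult1a1* had the highest correlation (0.973), and *Cyp1b1* and *Ephx1* followed (0.881). These correlations are a description, since most of the variation is that between the media.

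Further genes of AhR signalling and of phenol disposal were counted from 6 lists of 71 genes in all. In proliferation medium 36 of the 71 could be tested, of which 2 were higher and 2 lower under 4HBP, against 3.74% of all genes tested higher and 3.69% lower. In differentiation medium 36 could be tested, with 0 higher and 2 lower, against 1.26% and 1.29% of all genes. The median log2 fold changes were -0.07 and -0.02. For the AhR complex, namely its chaperones, ARNT2 and coactivators, all 7 genes were tested, with 0 called by edgeR in the fit of either medium's own libraries or for the difference between the media. An unadjusted p under 0.05 was reached by 2 of the 7 in each medium, against 25.1% of all genes tested in proliferation and 15.9% in differentiation medium, and by 1 for the difference, against 19.9%. DESeq2 called 0, 0 and 1, and edgeR with all 11 libraries in 1 fit called 1 in proliferation and 0 in differentiation medium. *Arnt2*, a paralog of *Arnt*, singled out after its values were seen, was at 79.7 ± 2.19 TPM (SD, n = 3) in vehicle cultures in proliferation medium, where *Arnt* was at 15.1 ± 0.426 TPM.

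Among 9 other AhR target genes, *Cyp1a2* and *Aldh3a1*, classic targets in liver and epithelia, were at 0 in all 11 libraries, which allows up to 3 counts in each. In proliferation medium 3 of the 9 could be tested, and *Ugt1a6a* and *Nfe2l2* rose, when 3.74% of all genes tested were higher. The third, *Nqo1*, named after its values were seen, is a quinone reductase and had a log2 fold change of -0.35 ± 0.27 SE (adjusted p = 0.469). *Ugt1a6a*, a UGT that conjugates small planar phenols, was 18.2, 22.3 and 29.5 CPM under 4HBP and 13.3, 12.1 and 11.5 CPM under vehicle. In this comparison 31.3% of all genes tested did not overlap, and neither did the groups of *Ugt1a6a* (log2 fold change 0.92 ± 0.17 SE, adjusted p = 0.0176). In differentiation medium it moved the other way, with 12.8, 12.7 and 12.3 CPM under 4HBP and 19.3 and 14.6 CPM under vehicle (log2 fold change -0.43 ± 0.11 SE, adjusted p = 0.0447). The difference between media was 1.35 ± 0.23 SE (adjusted p = 0.0090). Leaving out single libraries ended the *Ugt1a6a* call in 3 of 6 runs in proliferation medium and in 4 of 5 in differentiation medium, where DESeq2 did not call it either (adjusted p = 0.0793), and ended the difference without vehicle replicate 1 of differentiation medium (adjusted p = 0.0665). The *Ugt1a* genes share their last exons, so reads there cannot be assigned to 1 of them with certainty. *Nfe2l2*, which encodes the oxidative stress regulator NRF2, was 309, 323 and 331 CPM under 4HBP and 180, 177 and 235 CPM under vehicle in proliferation medium, again without overlap (log2 fold change 0.70 ± 0.11 SE, adjusted p = 0.0105). The *Nfe2l2* call was lost without vehicle replicate 1 (adjusted p = 0.0675) or 2 (adjusted p = 0.0609). It was 170, 179 and 175 CPM against 183 and 189 CPM in differentiation medium (log2 fold change -0.10 ± 0.04 SE, adjusted p = 0.215). *Nqo1* there was 7.32, 7.86 and 8.53 CPM under 4HBP and 6.39 and 5.63 CPM under vehicle, and was not called. Of all genes tested there, 32.9% likewise did not overlap. An unadjusted edgeR p under 0.05 was reached by 3 of 3 targets tested in differentiation medium, against 15.9% of all genes. In proliferation medium 2 of 3 reached it, against 25.1%.

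The sulfation list held 16 further genes, 10 of them above 0 in any library. In proliferation medium 7 were tested and 1 was lower, when 3.69% of all genes tested were lower. DESeq2 called 1 of the 7 there, and edgeR with all 11 libraries in 1 fit called 2. *Papss2*, which makes the sulfate donor PAPS that sulfotransferases use, was 1.27, 1.16 and 2.39 CPM under 4HBP and 6.05, 9.08 and 6.80 CPM under vehicle. Of all genes tested in this comparison 31.3% did not overlap. For *Papss2* every treated library was well below every vehicle library (log2 fold change -2.18 ± 0.29 SE, adjusted p = 0.0066). The call of *Papss2* held in all 6 runs that left out 1 library, with log2 fold changes of -2.58 to -1.99. In differentiation medium *Papss2* was 40, 38.2 and 36.1 CPM under 4HBP and 41.6 and 35.9 CPM under vehicle, with overlap (log2 fold change -0.03 ± 0.07 SE, adjusted p = 0.881). Its paralog *Papss1*, singled out after its values were seen, was at 86.1 ± 6.15 TPM (SD, n = 3) in vehicle cultures in proliferation medium, where *Papss2* was at 2.74 ± 0.556 TPM.

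Of 20 glucuronidation genes 8 were above 0 in any library. In proliferation medium 4 were tested, with *Ugt1a6a* higher and *Ugp2* lower, when 3.74% of all genes tested were higher and 3.69% lower. DESeq2 called 3 of these 4, and edgeR with all 11 libraries in 1 fit called 3 of 5 tested. *Ugp2* makes UDP-glucose, the precursor of the UDP-glucuronic acid that UGTs consume. It was 125, 117 and 132 CPM under 4HBP and 151, 160 and 153 CPM under vehicle (log2 fold change -0.31 ± 0.07 SE, adjusted p = 0.0339), and leaving out 1 library ended this call in 5 of 6 runs. In differentiation medium it was 231, 231 and 230 CPM against 210 and 216 CPM (log2 fold change 0.11 ± 0.03 SE, adjusted p = 0.127). Of 13 genes of oxidation, hydrolysis, reduction and methylation 11 were tested, with 0 called by DESeq2 or by edgeR in the fit of either medium's own libraries. In proliferation medium 2 of the 11 reached an unadjusted p under 0.05 in edgeR, against 25.1% of all genes tested, and in differentiation medium 0 did, against 15.9%. With all 11 libraries in 1 fit edgeR called 2 in proliferation and 0 in differentiation medium. Of 8 efflux transporters 5 were tested in each medium. In proliferation medium 0 were called in the fit of its own libraries, 1 by DESeq2 and 2 by edgeR with all 11 libraries in 1 fit. *Abcc5*, a pump for organic anions and conjugates, was lower in differentiation medium, when 1.29% of all genes tested were lower. It was at 135, 142 and 127 CPM against 155 and 158 CPM (log2 fold change -0.22 ± 0.05 SE, adjusted p = 0.0170). This call was lost without either vehicle library (adjusted p = 0.154 and 0.128). In proliferation medium *Abcc5* overlapped between the groups (adjusted p = 0.787).

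**Figure D5:**
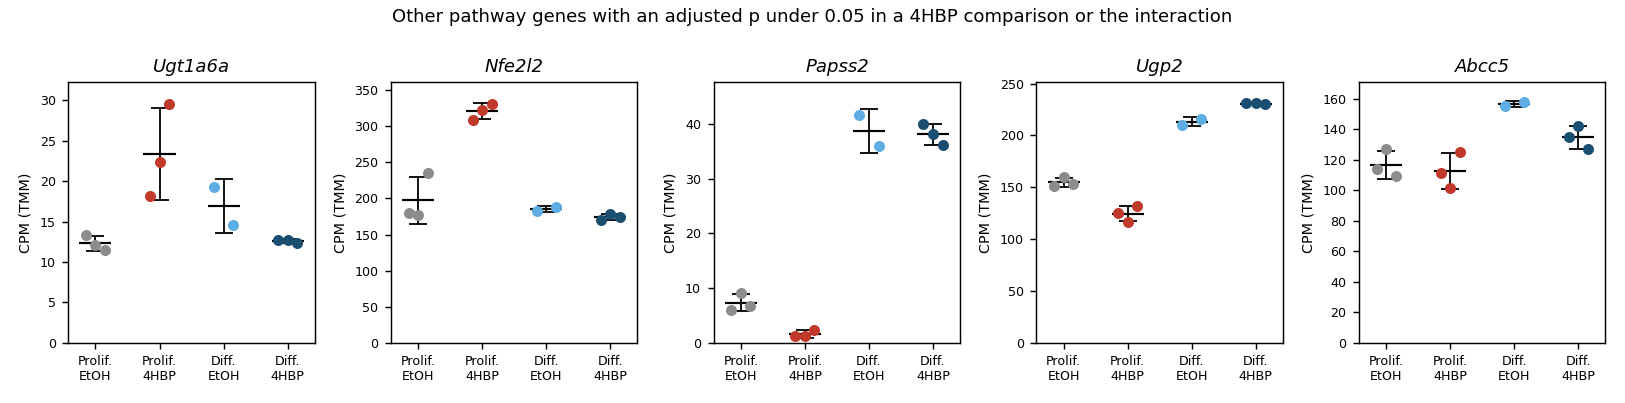
CPM after TMM scaling of the 5 further pathway genes that passed a test of 4HBP, with points for libraries, horizontal lines for group means and bars for SD. Under 4HBP in proliferation medium *Ugt1a6a* and *Nfe2l2* lie above and *Papss2* and *Ugp2* below all EtOH libraries of that medium. Of all genes tested there, 31.3% did not overlap.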

How the data were processed

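Poly(A) RNA libraries were sequenced as 150 bp pairs, per the study's methods. The authors trimmed reads with cutadapt, checked them with FastQC 0.11.5 and quantified genes with RSEM 1.3.0 and Bowtie2 2.2.9 on mm10/GRCm38 with GENCODE annotation. The deposited tables hold expected counts, TPM and FPKM per gene. RSEM shares ambiguous reads between genes, and 18.6% of nonzero expected counts were not whole. Here they were rounded and tested with edgeR 4.0.16 (quasi-likelihood, filterByExpr by group, TMM, Benjamini-Hochberg adjustment over all genes tested, threshold 0.05). 4HBP was tested against vehicle in a fit of each medium's own libraries, since these differed in spread, and the media and the interaction in a fit of all 11 libraries. Deposited TPM ordered the members by level, and FPKM was an alternative. Further alternatives were DESeq2 1.42.0, limma 3.58.1 (with the thresholds the study used), other scalings and filters, a block for the replicate number, and fits without each library in turn. The fits were also run on data simulated with the spread fitted to these libraries, which cannot show whether that spread is technical, and no result here rests on that run. Symbols were matched to 99.66% of gene IDs (GENCODE). The members and lists were chosen with earlier results of these data known. The named genes were the members, at most 4 genes per further list with an adjusted p under 0.05 in a 4HBP comparison or the interaction, and the 2 genes most correlated with each tested member, of which those for *Tiparp* are not reported here.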

Additional observations from a re-analysis of the deposited data

Results flagged for a closer look

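The effect of 4HBP differed between proliferation and differentiation medium for *Ephx1* and 4 further pathway genes, by the interaction test in edgeR's fit of all 11 libraries. *Ephx1* was 1 of 7 members tested. Of 38 further genes tested 2 were higher and 2 lower, when 2.01% of all 15920 genes tested were higher and 2.48% lower. These 4 genes were named in part by this same test. Each value is the log2 fold change in proliferation medium minus that in differentiation medium. It was 0.88 ± 0.18 SE for *Ephx1* (adjusted p = 0.0168), with 3 of 3 treated libraries above all vehicle libraries in proliferation medium and overlapping groups in differentiation medium. Of all genes tested in proliferation medium, 31.3% did not overlap. For *Ugt1a6a* the value was 1.35 ± 0.23 SE (adjusted p = 0.0090) and for *Nfe2l2* 0.79 ± 0.13 SE (adjusted p = 0.0081). For *Papss2* it was -2.15 ± 0.28 SE (adjusted p = 0.0023) and for *Ugp2* -0.43 ± 0.08 SE (adjusted p = 0.0130). Single outlying libraries were looked for by leaving each out, since the gap test used for larger groups needs at least 4 samples.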

How the results depend on the processing

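With 2 or 3 libraries per group, differences near the spread were not resolved, *Ahr* and *Ahrr* had at most 53 and 11 counts, and *Cyp1a1* never exceeded 3. The number of genes called for 4HBP depended on the test. In proliferation medium 1074 genes were called, against 1623 with DESeq2, 18 with limma on log2(CPM + 1), 534 with the replicate block, 2668 with all 11 libraries in 1 fit and 107 to 1429 when 1 library was left out, the fewest without vehicle replicate 1. In differentiation medium 395 were called, against 0 with limma (2660 at an unadjusted p under 0.05), 0 with all 11 libraries in 1 edgeR fit (644 at an unadjusted p under 0.05), 277 with DESeq2, 778 without a filter, 745 with the replicate block and 77 to 288 when 1 library was left out. For the interaction 715 were called, against 1078 with DESeq2, 1616 without a filter and 124 to 1100 when 1 library was left out. Between media 7907 to 10477 genes were called under vehicle and 9830 to 10915 under 4HBP when 1 library was left out.

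Members called went from 1 to 0 with limma in both media and with all 11 libraries in 1 fit in differentiation medium. They ranged from 0 to 1 in each medium when 1 library was left out, from 0 to 2 for the interaction, from 3 to 6 for the media under vehicle, and stayed at 3 under 4HBP. Where a left-out library leaves 1 vehicle library in differentiation medium, that library is assumed to vary like the other groups. Reversed signs, none past the threshold, were *Arnt* in proliferation medium with library totals (0.0015) or leaving out 1 library (-0.081 to 0.016), *Abcc5* there (-0.13 to 0.020 on leaving out 1 library), *Papss2* in differentiation medium with the replicate block (0.0099) or leaving out 1 library (-0.13 to 0.083), and *Nfe2l2* between media under vehicle (-0.16 to 0.056 on leaving out 1 library).

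Libraries with the same replicate number did not deviate together, with correlations of -0.129 to -0.0305 among proliferation libraries and of -0.0102 and 0.0957 among differentiation libraries, so the numbers were not taken to pair them. With the replicate block the log2 fold change was 0.85 for *Ephx1* in proliferation medium (adjusted p = 0.0087) and -0.70 for *Sult1a1* in differentiation medium. In the latter medium, 4HBP replicate 3 has no vehicle library of the same number, so the block fits it exactly. Little was then left to measure the spread there. Calls of 4HBP with the block in that medium, 745 genes in all, are therefore not read as a check. Elsewhere the block ended the call of *Ugp2* in proliferation medium (adjusted p = 0.0947). It also ended that of *Arnt* between media under vehicle (adjusted p = 0.0651). Apart from 4HBP in differentiation medium, no other call of the genes named was ended.

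Limma on log2(CPM + 1) left none of the genes named past the threshold for 4HBP, with adjusted p-values of 0.0560 to 0.113 for *Ephx1*, *Ugt1a6a*, *Nfe2l2*, *Papss2* and *Ugp2* in proliferation medium and of 0.302 to 0.402 for *Sult1a1*, *Ugt1a6a* and *Abcc5* in differentiation medium. With library totals *Ugp2* did not pass in proliferation medium (adjusted p = 0.0560). Without single differentiation libraries the interactions of *Nfe2l2* (adjusted p = 0.0571) and *Ugp2* (0.0650 and 0.0894) did not pass.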
